A study of Mus musculus with 8 samples.

Results

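The genes described here are the class III and class IV POU transcription factors of the mouse, Pou3f1 to Pou3f4 and Pou4f1 to Pou4f3. The family was taken as a whole, 7 symbols, and each gene's probe set was chosen by its mean level, the highest among those annotated to that symbol only. That choice had no effect here, because each of the 6 symbols found had 1 probe set. Pou4f2 had none and is not analysed here. The 6 measured genes are set among 22180 genes on the same arrays.

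The samples are 8 primary tumours (n = 8), 1 array each, that the labels place in 1 group. They grew from mouse neural crest cells infected to express N-Myc, the MYC family factor amplified in human high-risk neuroblastoma, and the infected cells were a mix of p53+/- and p53-/- cells (named N-Myc; p53mixed). Cells were harvested 48 hours after infection, about 10000 were placed under the skin of each nude or C57Bl/6 mouse, and tumours were removed at about 50 days. The labels do not say which host or which p53 genotype any tumour had, nor whether each came from its own culture, so every comparison is between tumours of unknown host and genotype. A C57Bl/6 host keeps T cells that a nude host lacks. No normal tissue or cells without N-Myc were analysed here. In whole tumours, a lower level from fewer cells of a type and from less RNA per cell cannot be told apart.

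POU factors bind DNA through a POU-specific domain joined by a flexible linker to a homeodomain, and they often act in pairs with SOX or bHLH factors. The Pou3f genes, which have no introns, act in neural progenitors and in the first steps of neuronal differentiation, and Pou3f1 also acts in Schwann cells before they myelinate. The Pou4f genes act in sensory neurons. Pou4f1 (Brn3a) marks neurons of the dorsal root and trigeminal ganglia, Pou4f2 (Brn3b) retinal ganglion cells and Pou4f3 (Brn3c) auditory hair cells. Sympathetic neurons and neuroblastoma come from another branch of the neural crest than sensory ganglia.

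Promoter sequence is shown for the 3 members whose values set the main patterns below: Pou3f3, which differed most between tumours, Pou3f2, which differed little, and Pou4f1, which was above background in 1 tumour. Each line gives the 250 bases before the start site, from RefSeq on GRCm38.p6, read 5′ to 3′ on the gene's own strand. Capitals mark CCAAT boxes, the letters CCAAT on either strand.

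Pou3f3, chr1:42695518-42695767, plus strand: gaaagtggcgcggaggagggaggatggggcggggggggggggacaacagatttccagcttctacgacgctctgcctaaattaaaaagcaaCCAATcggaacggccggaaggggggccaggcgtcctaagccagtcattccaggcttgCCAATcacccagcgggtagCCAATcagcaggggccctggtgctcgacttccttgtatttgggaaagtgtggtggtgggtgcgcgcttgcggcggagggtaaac

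Pou3f2, chr4:22488367-22488616, minus strand: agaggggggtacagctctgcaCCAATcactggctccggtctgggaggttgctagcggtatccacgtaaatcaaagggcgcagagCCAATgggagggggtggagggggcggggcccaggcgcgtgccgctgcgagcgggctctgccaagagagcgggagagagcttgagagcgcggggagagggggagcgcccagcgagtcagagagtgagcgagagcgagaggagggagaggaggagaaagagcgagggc

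Pou4f1, chr14:104468000-104468249, minus strand: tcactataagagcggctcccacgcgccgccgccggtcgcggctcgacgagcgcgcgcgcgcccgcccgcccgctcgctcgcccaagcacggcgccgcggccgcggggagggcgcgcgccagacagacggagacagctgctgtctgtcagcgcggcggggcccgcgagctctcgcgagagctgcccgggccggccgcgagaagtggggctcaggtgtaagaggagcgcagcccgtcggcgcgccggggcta

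Pou3f3 held 3 CCAAT boxes, Pou3f2 held 2 and Pou4f1 held 0, and 33.8% of 32851 RefSeq windows of the same length held at least 1. The E-box CACGTG, the sequence that MYC family proteins bind with Max, was in none of these 3 windows and in 6.02% of all. The octamer ATGCAAAT, a binding sequence of POU factors, was in none of them and in 1.6% of all, and TATAAA was in none of them and in 12.4% of all. No searched motif overlapped another. The Pou4f1 window was 78.0% G and C with 47 CG pairs, the Pou3f2 window 66.8% with 18 and the Pou3f3 window 60.8% with 15, against medians of 52.4% and 6 over all windows. These matches describe letters in a window and are no evidence of binding.

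Of the 6 measured genes, Pou3f1, Pou3f2 and Pou3f3 were above the array background on average, and Pou3f4, Pou4f1 and Pou4f3 were not. Levels are log2 expression values, and the background is the 95th percentile, on the same array, of 1435 probe sets for odorant receptors (Olfr), pheromone receptors (Vmn1r, Vmn2r) and taste receptors (Tas2r), which lay between 5.45 and 5.66. On the scale of level minus background, Pou3f2 stood at 2.79 ± 0.31 (SD, n = 8), Pou3f3 at 1.44 ± 1.68 and Pou3f1 at 0.85 ± 0.83. Pou4f1 stood at -0.32 ± 0.90, Pou4f3 at -0.47 ± 0.28 and Pou3f4 at -1.43 ± 0.28. Over all genes, 60.8% had a mean above background, so 3 of 6 is close to the share of the array. Only Pou3f2 was above background in every tumour, as were 54.5% of all genes. No test was made of these levels. Probes of different genes respond differently, so levels are not ranked between genes. Probe sequences were not given, and whether any probe reads more than 1 of these related genes was not tested.

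**Figure D1:**
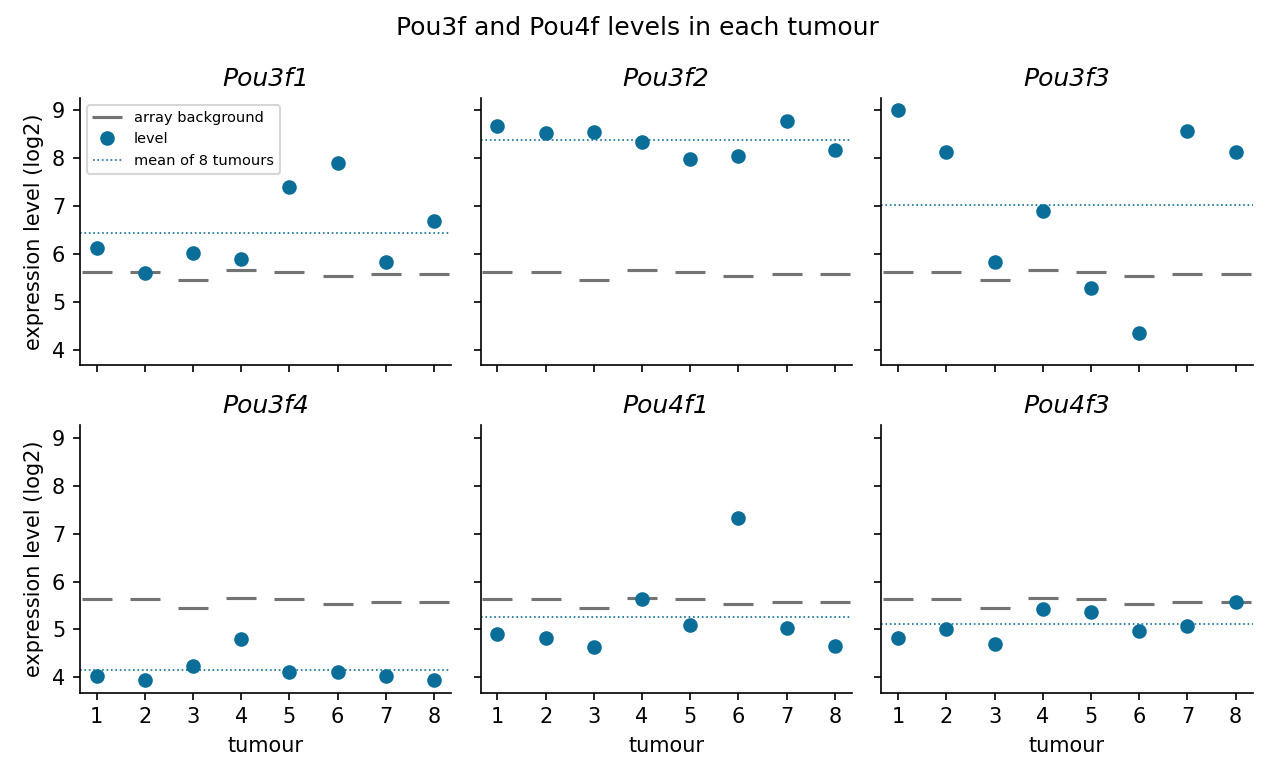
Expression level (log2, vertical axis) of the 6 measured Pou3f and Pou4f genes in each of the 8 tumours (horizontal axis). Points are levels, grey dashes the background of each array and dotted lines the mean of the 8 tumours; Pou3f2 lies above background throughout, Pou3f3 runs from 4.36 to 9.00, and Pou4f1 is above background in tumour 6.

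Pou3f3 (Brn1), a factor of cortical neurons and of the developing kidney, differed most between tumours. Its level was 9.00 in tumour 1, 8.57 in tumour 7, 8.13 in tumour 8 and 8.12 in tumour 2. It was 6.89 in tumour 4 and 5.83 in tumour 3, 5.29 in tumour 5 and 4.36 in tumour 6. Tumours 1, 2, 7 and 8 were thus high, tumours 4 and 3 intermediate, and tumours 5 and 6 below the background of their own arrays. Tumours 8 and 2, next to each other in this order, differed by less than 0.01. The highest and lowest level lay 4.64 apart on the log2 scale, and level minus background was 3.37 in tumour 1 and -1.17 in tumour 6. Since the low end is under background, the true difference is not measured there. Above background in every tumour except 5 and 6 were 16 of the 22180 genes (0.0721%), Pou3f3 among them.

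The SD of Pou3f3 over the tumours was 1.70, and 14 of the 13491 genes with a mean above background had a larger one. The SD of Pou4f1 was 0.89 and that of Pou3f1 0.82. All 3 were above 0.68, the level that 5% of the genes above background exceed. The SDs of Pou4f3 (0.31), Pou3f2 (0.29) and Pou3f4 (0.28) were nearer the median of 0.23 for genes above background. Pou4f1, Pou4f3 and Pou3f4 had means under background, so they are themselves not among the genes that set this cut and median. With 1 array per tumour, the part of an SD that is technical was not tested. Without tumour 6, only Pou3f3 stayed above the 95th percentile of SD (1 member instead of 3).

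**Figure D2:**
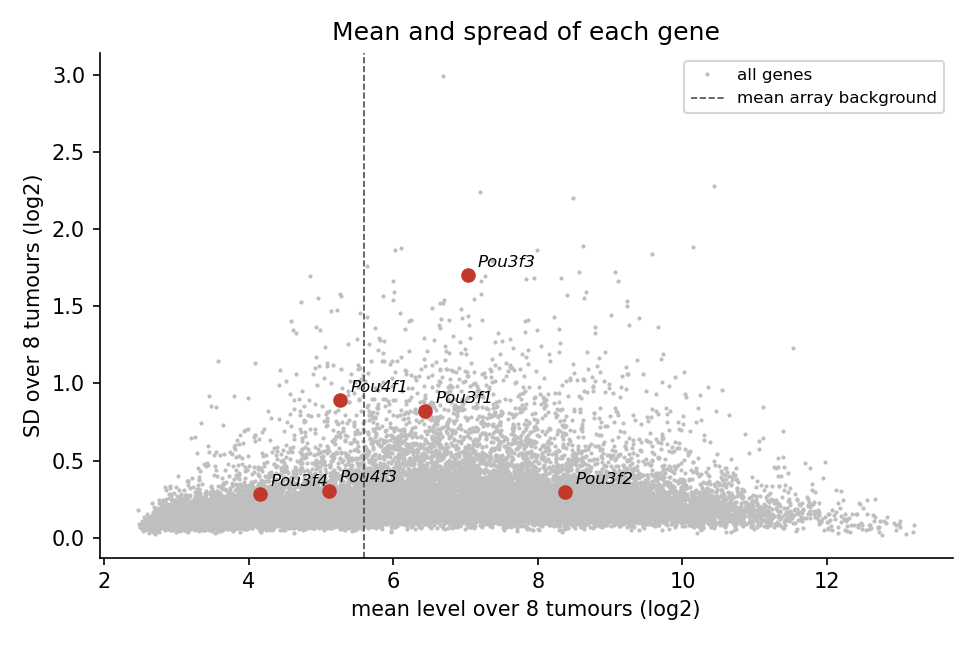
Mean level (log2, horizontal axis) and SD (log2, vertical axis) over the 8 tumours for every gene (grey) and the 6 measured POU genes (red, labelled); the dashed line is the mean array background. Pou3f3 has an SD of 1.70, exceeded by 14 genes above background, while Pou3f2 lies in the bulk at 0.29.

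The genes next to Pou3f3 on chromosome 1 followed its order across the tumours. In the GRCm38.p6 gene table the nearest gene with a value on the lower-coordinate side is Pantr1, a long noncoding RNA gene, and on the other side 2900092D14Rik, also a long noncoding RNA gene, on the same strand as Pou3f3. Pantr1 had its lowest level, 5.14, in tumour 6, a median of 7.19, and its highest, 8.64, in tumour 1. 2900092D14Rik ran from 4.01 in tumour 6 through a median of 7.49 to 9.91 in tumour 1. Both were higher in tumours 1, 2, 7 and 8 than in the other 4 tumours. That split was taken from Pou3f3, so it adds nothing to the r values below, and its share among all genes was not computed. Pearson's r with Pou3f3 over the 8 tumours was 0.989 for Pantr1 (exact permutation, two-sided p = 4.96e-05) and 0.990 for 2900092D14Rik (exact permutation p = 9.92e-05). Each had an adjusted p of 0.000298 over 6 neighbour relations by the same exact permutation. Spearman's rho was 0.976 and 0.929 (exact permutation, adjusted p = 0.00238 and 0.00670). Without tumours 5 and 6, the 2 farthest from the median of Pou3f3, r was 0.987 and 0.979. These relations were set up after the values had been seen. The 2 probe sets lie beside Pou3f3, and whether any of the 3 reads RNA that runs across a gene boundary was not tested.

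**Figure D3:**
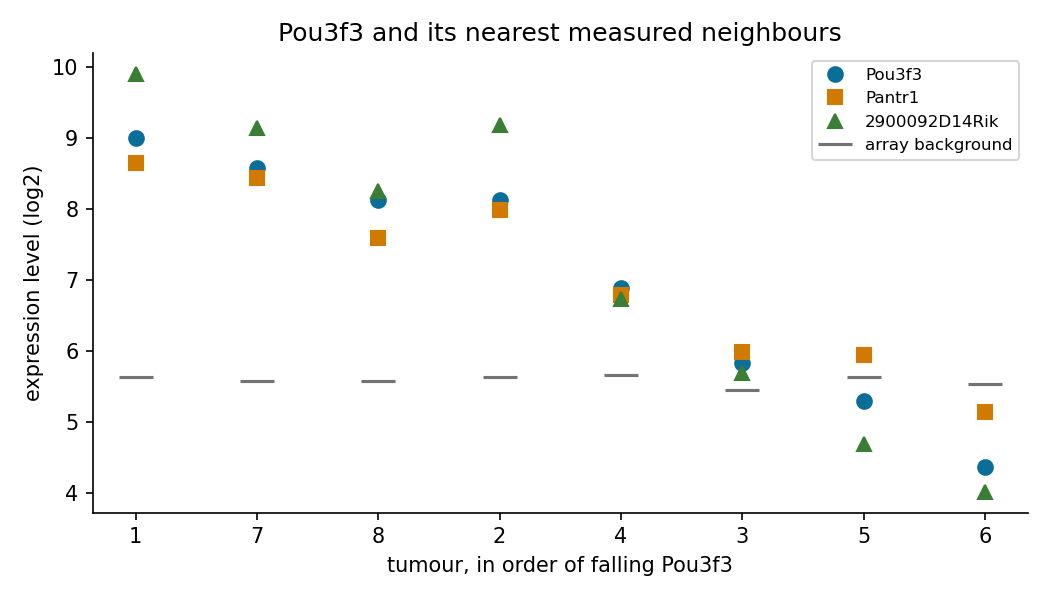
Expression level (log2, vertical axis) of Pou3f3, Pantr1 and 2900092D14Rik in each tumour (horizontal axis, ordered by falling Pou3f3), with the background of each array as grey dashes. All 3 genes are highest in tumour 1 and lowest in tumour 6, where each is under background.

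Pou3f2 (Brn2), a factor of neural progenitors and young neurons, was the steadiest of the members above background. Its lowest level was 7.98 in tumour 5, its median 8.42 and its highest 8.77 in tumour 7. Tumour 6 was also low, at 8.04. Every tumour was at least 2.35 above its background, and the whole range was 0.79. Its neighbours with a value were Fbxl4, a ubiquitin ligase component at 6.88 ± 0.15 (SD, n = 8), and the noncoding Gm42262, which was under background in all 8 tumours. Neither relation with Pou3f2 passed (r = 0.610 and -0.595, exact permutation adjusted p = 0.144 for both). That with Gm42262 passed with arrays centred on their medians (r = -0.799, exact permutation adjusted p = 0.0321) and without tumour 1 (r = -0.803, adjusted p = 0.0408), on levels that are all under background.

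Pou3f1 (Oct6, Scip), a factor of Schwann cells before myelination and of epidermis, was high in 2 tumours and near background in most. It reached 7.90 in tumour 6 and 7.39 in tumour 5, with 6.69 in tumour 8. The other 5 tumours lay between 5.61 in tumour 2 and 6.12 in tumour 1, and the median was 6.07. Level minus background was -0.02 in tumour 2 and above 0 in the other 7. Tumours 6 and 5, where Pou3f1 was highest, were those where Pou3f3 was lowest. Utp11, a ribosome biogenesis gene beside Pou3f1, had an r of 0.789 with it (exact permutation adjusted p = 0.0312, rho = 0.690 with adjusted p = 0.139). That relation rests on few tumours: without tumours 5 and 6 the r was 0.455, and without tumour 6 alone it was 0.511 (exact permutation adjusted p = 0.313). It also lost its call by exact permutation without tumour 2 (adjusted p = 0.0754), tumour 5 (0.0512) or tumour 7 (0.0667). The neighbour on the other side, 4933407E24Rik, was under background in all tumours.

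Pou3f1 and Pou3f2 ran in opposite directions across the tumours, with r = -0.837 (exact permutation, two-sided p = 0.00821, adjusted p = 0.0246 over 3 pairs). By rank the relation missed the threshold (rho = -0.690, exact permutation adjusted p = 0.104). Without tumours 5 and 6 it was -0.583 (exact permutation p = 0.218), so the call rests on those tumours. It was also lost by exact permutation without tumour 2 (adjusted p = 0.0554), tumour 5 (0.0607), tumour 6 (0.0613) or tumour 7 (0.0589), with r between -0.856 and -0.785 wherever 1 tumour was left out and r could be given. Pou3f2 varies over a range of 0.79 only, so this is a relation of small differences. Pou3f3 had an r of -0.733 with Pou3f1 and 0.718 with Pou3f2 (exact permutation adjusted p = 0.0543 for both). Without tumours 5 and 6 they were 0.0782, with the sign turned, and 0.288. Pou3f1 and Pou3f3 passed with arrays centred on their medians (r = -0.756, exact permutation adjusted p = 0.0422), and both pairs passed with quantile normalization once more (adjusted p = 0.0404 for each). Without tumour 3 both also passed (exact permutation adjusted p = 0.0256 for each). Without tumour 8, Pou3f2 with Pou3f3 had an exact permutation p of 0.0204. It was the only pair computed there, since Pou3f1 split into clusters. That p is therefore not adjusted over 3 pairs like the others.

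**Figure D4:**
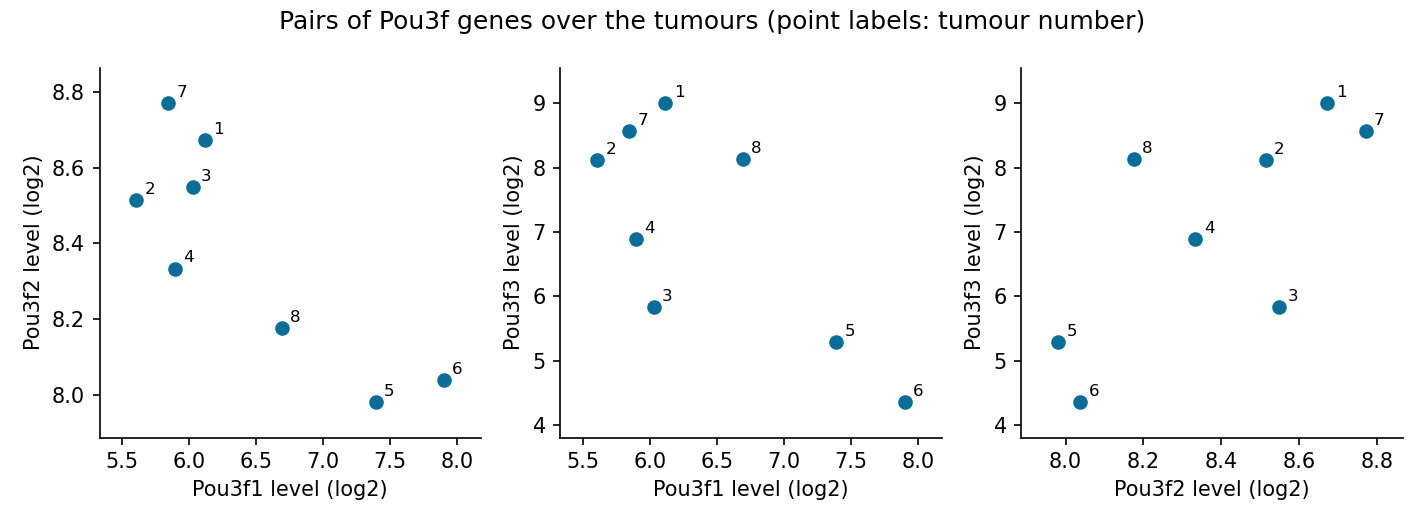
Levels (log2) of Pou3f1, Pou3f2 and Pou3f3 plotted against each other, 1 point per tumour with its number. Tumours 5 and 6 stand at high Pou3f1, low Pou3f2 and low Pou3f3, and the 6 other tumours lie between 5.61 and 6.69 in Pou3f1.

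Among the Pou4f genes, Pou4f1 was above background in tumour 6 alone. It was at 7.33 there, 1.79 above background, and between 4.64 (tumour 3) and 5.64 (tumour 4) in the other 7 tumours, with a median of 4.97. Tumour 6 therefore stood clear of the rest with no overlap. In tumour 4 the level minus background of Pou4f1 was -0.02, close to the cut. Of all genes, 100 (0.451%) were above background in tumour 6 only. The nearest measured genes of Pou4f1 showed no such peak. Obi1, a replication gene, was at 8.93 in tumour 6 and between 8.54 and 9.09 over all 8 tumours, and the noncoding D130079A08Rik was highest in tumour 7 (5.72). Pou4f3 was under or at background throughout, with a lowest level of 4.70 in tumour 3, a median of 5.05 and a highest of 5.57 in tumour 8. Pou3f4 (Brn4), a factor of the inner ear and striatum, was at 3.94 to 4.24 in 7 tumours and at 4.80 in tumour 4, under background in all 8.

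Tumour 6 also stood apart in the sympathetic genes, and tumour 4 in the glial genes. All 15 measured sympathetic neuron genes were above background on average, and tumour 6 was the lowest for 10 of them. Tfap2b, a sympathetic neuron factor, was at 4.88 and Dbh, which makes noradrenaline, at 5.72 in tumour 6, against at least 10.39 and 9.87 elsewhere. The mean of the 15 genes, each centred on its own mean, was -1.73 in tumour 6 and between -0.37 and 0.88 in the others. Of 10 Schwann cell and glia genes 8 were above background, and 7 of the 8 were highest in tumour 4. Their mean was 1.57 in tumour 4, 0.83 in tumour 6 and between -0.79 and 0.27 elsewhere. Sox10, a crest and glial factor, was at 8.32 in tumour 4 and 8.05 in tumour 6. The shares of all genes that were lowest in tumour 6 or highest in tumour 4 were not computed. The part of these gene programmes in the Pou4f1 value of tumour 6 was not tested.

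Sensory neuron genes did not share 1 direction in tumour 6. Of 21 measured genes on the list of Pou4f partners and sensory neuron genes, 14 were above background, with a median of 0.90 over all 21 against 0.68 over all genes (level minus background). Of these 14, 5 were highest and 5 lowest in tumour 6, and the shares of all genes were not computed. The centred mean of the 14 was lowest in tumour 6, at -0.40, and between -0.11 and 0.23 in the others. Highest there were the neurogenic factor Neurod1 (7.63), Runx1 (7.66) and Runx3 (6.16), factors of sensory neuron subtypes, Ntrk2, the BDNF receptor (7.84), and the neuropeptide galanin gene Gal (9.16). Lowest there were Isl1, a factor shared by sensory and sympathetic neurons (10.36), Tlx3 (6.63) and Prrxl1 (6.75), factors of sensory ganglion and relay neurons, the neurotrophin-3 receptor Ntrk3 (6.33) and the sodium channel Scn9a (7.60). Of the markers of mature pain-sensing neurons, Scn10a and Trpv1 were under background in every tumour. Tac1 was just above background in tumours 4 and 6 (5.69 and 5.61, against backgrounds of 5.66 and 5.54) and under it elsewhere. Calca is not analysed here. Shox2, a factor of touch neurons, ran from 6.83 in tumour 4 to 9.52 in tumour 8.

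The list of Pou3f partners and targets had 13 of 17 measured genes above background, with a median of 0.85 (level minus background). Sox11 and Sox4, SOX factors of young neurons, were at 9.05 ± 0.17 and 9.45 ± 0.41 (SD, n = 8), and Myt1l, a zinc finger factor of neurons, at 8.29 ± 0.35. Sox2, the SOX partner of Pou3f2 in neural progenitors, was above background in 2 tumours, at 6.85 in tumour 4 and 5.71 in tumour 6. Fabp7, a fatty acid binding protein of radial glia and a known target of Pou3f2, was at 12.03 in tumour 4 and 11.51 in tumour 6 and between 6.24 and 8.96 in the others, while Pou3f2 itself was at 8.33 and 8.04 in those tumours. Nes, an intermediate filament gene of progenitors with a Pou3f-bound enhancer, was highest in tumour 6 (7.79) and lowest in tumour 1 (5.53). Egr2, the myelination factor that Pou3f1 and Sox10 switch on in Schwann cells, stayed between 5.92 and 6.61.

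**Figure D5:**
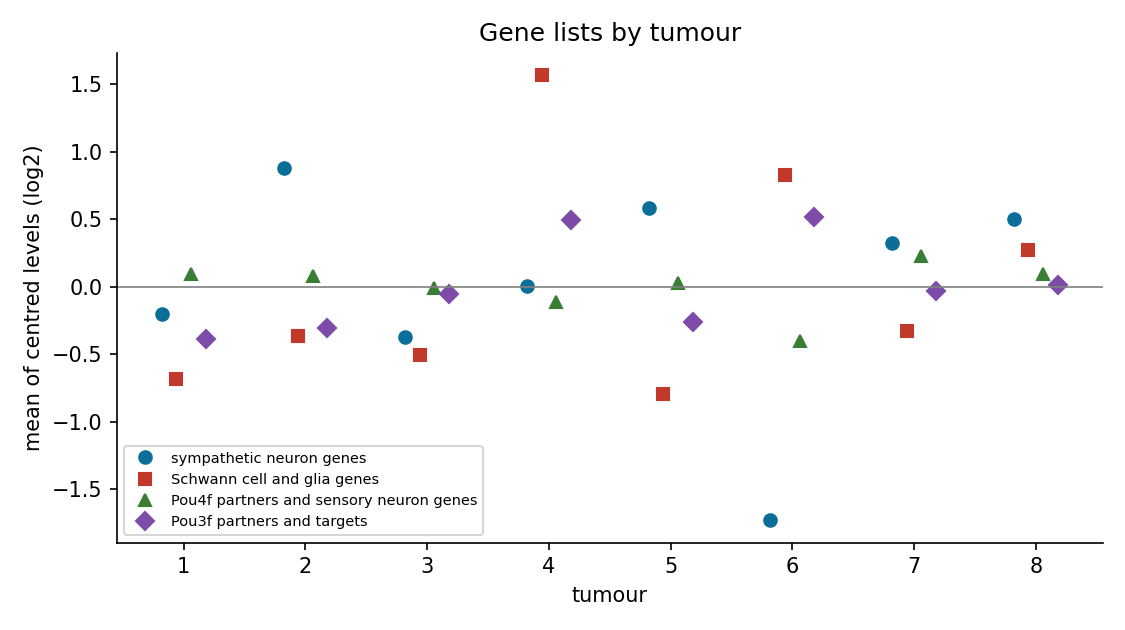
Mean of the centred levels (log2, vertical axis) of the above-background genes of 4 lists in each tumour (horizontal axis). Sox10, Fabp7 and Egr2 count in both the Pou3f partners list and the Schwann cell and glia list. The sympathetic list is at -1.73 in tumour 6, and the Schwann cell and glia list at 1.57 in tumour 4 and 0.83 in tumour 6.

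None of 9 relations between Pou3f1, Pou3f2 or Pou3f3 and the 3 list means passed the adjustment. The closest was Pou3f3 with the sensory neuron list, at r = 0.792 (exact permutation p = 0.00898, adjusted p = 0.0808) and rho = 0.881 (exact permutation adjusted p = 0.0652), and without tumours 5 and 6 its r was 0.727. Pou3f3 had an r of 0.582 with the sympathetic list (exact permutation adjusted p = 0.263). That value rests on single tumours, with an r of 0.10 without tumour 6 and 0.803 without tumour 5 (exact permutation adjusted p = 0.964 and 0.0923). Pou3f1 showed little relation with the Schwann cell and glia list (r = 0.126, exact permutation adjusted p = 0.785). Tumour 4, the highest in glial genes, had Pou3f1 at 5.90, and tumour 5, with Pou3f1 at 7.39, had the lowest glial mean. Tumour 6, with the highest Pou3f1 (7.90), had a glial mean of 0.83. The r with the glial list depends on single tumours. It was 0.528 without tumour 4, 0.379 without tumour 5 and -0.263 without tumour 6.

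Apart from its neighbours, the genes most like Pou3f3 were Tppp3, a tubulin-binding protein gene (r = 0.931, rho = 0.976), Ccser1 (r = 0.930, rho = 0.833) and E230016M11Rik (r = 0.927, rho = 0.905). Likeness was Pearson's r over the 8 tumours among 1390 other genes above background with an SD of at least 0.5, all read on the same arrays, and 10 of them (0.719%) reached 0.9 with Pou3f3. For Pou3f1 the closest was Shisa8 (r = 0.939, rho = 0.929), followed by Rgs16 (r = 0.870), a regulator of G protein signalling, Dusp9 (0.827), a MAP kinase phosphatase, Sema6b (0.827), a semaphorin, and the potassium channel Kcnd3 (0.821). Without tumours 5 and 6 the r was 0.894 for Shisa8, but 0.266 for Rgs16 and -0.117 for Sema6b. For Pou3f2, 5 genes led: B230216N24Rik (r = 0.902), Ppp2r2b (0.883), a phosphatase subunit gene, Sema3c (0.882), a secreted semaphorin, Gria3 (0.864), a glutamate receptor subunit, and 1700123O21Rik (0.863). Shisa8 was the 1 gene of 1390 (0.0719%) to reach 0.9 with Pou3f1, and B230216N24Rik the 1 gene of 1391 (0.0719%) with Pou3f2. These genes were picked by their r, so no test applies to them.

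Of 6 other POU genes measured, Pou2f2, Pou5f1 and Pou6f1 were above background, at 7.08 ± 0.47, 5.98 ± 0.14 and 7.71 ± 0.26 (SD, n = 8). Pou2f2, best known from B cells, was lowest in tumour 4 (6.26) and highest in tumour 8 (7.70). Pou6f1, a brain factor, was lowest in tumour 6 (7.29) and highest in tumour 8 (8.12). The pluripotency gene Pou5f1 was 0.39 above background on average.

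Markers of host and other cell types differed between the tumours and are given beside the patterns above. All 7 macrophage genes and all 6 endothelial genes were above background, and so were 7 of 8 fibroblast and pericyte genes. Tumour 1, the highest in Pou3f3, had the lowest mean of all 3 lists (-0.55, -0.69 and -0.53), while tumour 3 had the highest macrophage and fibroblast means (0.63 and 0.63) and tumour 4 the highest endothelial mean (0.76). Tumour 6 was at 0.31, 0.00 and 0.38. The means ranged over 1.17, 1.45 and 1.16, and the part of these cell types in the Pou3f3 levels was not tested. All 6 measured keratinocyte genes were highest in tumour 5, the tumour with the second highest Pou3f1. The share of all genes that were highest in tumour 5 was not computed. Krt14 was at 9.13 and Krt1 at 7.54 there, and both were under background in every other tumour, as were Trp63 and Dsg3 (5.84 and 5.78 in tumour 5). Krt10 and Lor, above background in all 8 tumours, were at 7.68 and 6.84 in tumour 5. In tumour 6, with the highest Pou3f1, Krt10 was at 6.44, Lor at 5.89, and the other 4 were under background. The part of keratinocytes in the Pou3f1 level of tumour 5 was not tested. Skeletal muscle genes (5 of 7 above background) had means between -0.90 in tumour 5 and 1.08 in tumour 6. Of 8 melanocyte genes 2 were above background on average, Kit, highest in tumour 6 (9.64), and Mitf, highest in tumour 4 (6.32). The pigment genes Dct and Pmel were above background in tumour 4 only, at 8.01 and 6.76, against 5.13 and 4.95 in tumour 6. Mlana was above background in tumours 4 and 5 (5.87 and 5.72), and Tyr, Tyrp1 and Slc45a2 were under background in all 8 tumours. Of 6 lymphocyte genes 2 were above background, Ptprc and Nkg7, each in all 8 tumours. The T and B cell genes Cd3e, Cd3g, Cd79a and Ms4a1 were under background in every tumour.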

How the data were processed

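Total RNA of 8 tumours was measured on Affymetrix mouse arrays, 1 array each. The deposited values are log2 levels per probe set that the authors made with 2 tools, RMA and Partek 6.5 (per the submitters' processing notes, with no statement of the steps of each). The scale was inferred from their range (2.07 to 13.61). Annotation and build: not given in the sources used here. RMA includes quantile normalization, which makes arrays alike overall.

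Of 41345 probe sets, 23521 have 1 gene symbol, 1814 several and 16010 none, which gives 22180 genes. List symbols were matched by symbol, then by Entrez identifier; a gene without a value is not analysed here. Array medians were 5.63 to 5.75, and 13061 to 13593 genes per array were above background. The number of arrays limits the precision.

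Relations were computed for members above background in at least 4 tumours, by exact permutation of 40320 pairings, two-sided, with Benjamini-Hochberg adjustment within each family and a threshold of 0.05. No r was given where a measure split into 2 clusters (a gap over 0.4 of its range). This rule was not applied to likeness, or to neighbour relations when settings were varied or tumours left out. Named genes are the members, the 3 genes of largest SD above background per list, other POU genes above background, the 5 most alike genes per member and the nearest measured neighbours; all others were chosen after their values were seen. The members and lists were chosen with earlier results of these data known. Alternatives were the mean of all probe sets, 2 further normalizations, 3 other backgrounds and leaving out tumours. Python 3.11.15, numpy 2.4.6, pandas 2.3.3 and matplotlib 3.10.9 were used, and the computations were tested on simulated data.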

Additional observations from a re-analysis of the deposited data

Results flagged for a closer look

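Among 65 genes examined, 8 had 1 tumour set apart from the rest, by a gap to the nearest other tumour that, as a share of the gene's whole range over the 8 tumours, exceeded Dixon's 95% critical value. Chance flags about 5% of groups taken at random, a rate that does not apply to this count, since many of these genes were chosen for a large SD or for their likeness to a member. Pou4f1 was highest in tumour 6 (7.33 against 5.64 for the next tumour, a gap of 0.628 of its range). Pou3f4 was highest in tumour 4 (4.80 against 4.24, a gap of 0.646), with all its levels under background. Of the genes chosen for their likeness to Pou3f1, itself highest in tumour 6, Rgs16 was highest in tumour 6 (7.53 against 6.38, a gap of 0.621) and so was Dusp9 (9.11 against 7.90, a gap of 0.606). Tfap2b was lowest in tumour 6 (4.88 against 10.39, a gap of 0.817), as was Dbh (5.72 against 9.87, a gap of 0.727). In tumour 5, Krt10 was highest (7.68 against 6.75, a gap of 0.602), and so was Lor (6.84 against 6.14, a gap of 0.732).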

How the results depend on the processing

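The number of members with a mean above background, 3, was 5 with the background at the 90th percentile of receptor probe sets and 6 at their median, since the level of the cut sets it; it was 2 at the 99th percentile, where Pou3f1 fell under it, and 3 under all other settings, each tumour left out included. The number of members with an SD above the 95th percentile was 1 to 3 with 1 tumour left out, 1 without tumours 5 and 6, and 3 or 2 otherwise. The number of member pairs with a called relation, 1, was 2 with arrays centred and 3 with quantile normalization once more. It was 0 with the background at the 90th or 99th percentile or the median (which changes how many pairs are adjusted for, or leaves out Pou3f1). It was also 0 without tumours 5 and 6. Without tumours 4 and 6, and without tumour 4 alone, clusters left no pair to compute, so no call was possible. The count ranged from 0 to 3 with 1 tumour left out. Leaving tumours out also leaves fewer samples; otherwise the cause was not tested. Of the neighbour relations, 4 were called with arrays centred and between 2 and 4 with 1 tumour left out. Those of Pou3f3 with Pantr1 and 2900092D14Rik passed in all 8 cases (r of 0.984 to 0.994 and 0.987 to 0.994). These include the cases without tumour 4, where Pou3f3 and both neighbours split into 2 clusters, and without tumour 8, where 2900092D14Rik did. The r given there spans 2 clusters, since the cluster rule was not applied to neighbours. No list relation that was computed passed with 1 tumour left out.

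Signs turned only for relations that were not called. Pou3f1 with 4933407E24Rik was 0.0689 with arrays centred, 0.0862 with quantile normalization once more, 0.410 without tumours 5 and 6, 0.452 without tumours 4 and 6 and from -0.220 to 0.457 with 1 left out. Without tumours 5 and 6, Pou3f1 with Pou3f3 was 0.0782, Pou3f1 with the sensory list 0.0378, Pou3f2 with the sympathetic list -0.223 and Pou3f2 with Fbxl4 -0.0157. Pou3f1 with the glial list was -0.116 without tumours 4 and 6 and from -0.263 to 0.528 with 1 left out. In such cases Pou3f1 with the sympathetic list ran from -0.810 to 0.205, Pou3f2 with it from -0.389 to 0.486 and Pou3f3 with the glial list from -0.478 to 0.0201. Some relations between members or with lists have no value without tumour 4, without tumour 8, or without tumours 4 and 6. A measure split into clusters there. All alternatives with tumours 4, 5 and 6 left out in pairs, and those for neighbours, were added after seeing the data. No paired analysis was possible because there is 1 group. Signal near background limits Pou3f4, Pou4f1, Pou4f3 and the low end of Pou3f3.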
